A study of Mus musculus with 96 samples.

Results

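Leukaemias that began from GMP cells were followed by DNA barcode in the bone marrow and the spleen of the same 4 Ptprca mice, numbered 5 to 8. The 8 values of each clone came from the 8 tissue columns of these mice, 4 of marrow and 4 of spleen, which stand for 16 of the 96 sequencing libraries of the series, made as 2 PCR libraries per tissue. All 4 mice received GMP-derived cells only. A clone was a barcode of the mCHERRY library, and the table of this host listed 2942 of them among 4382 barcodes. Of these, 1837 had at least 1 read in the 8 columns, 775 of them also in a pool sampled before transplantation (T0) and 1062 in none of the 3 T0 pools.

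GMP cells are granulocyte-monocyte progenitors, which normally give rise to neutrophils and monocytes. MLL-AF9 is a fusion of a chromatin regulator with a partner that recruits transcription elongation factors, and it can turn such progenitors into serially transplantable myeloid leukaemia. Bone marrow is the usual home of blood formation in the adult, while the mouse spleen filters blood and can host blood formation and leukaemia as well. A heritable barcode is copied at each division, so its share of reads follows the share of the tumour that descends from 1 marked cell.

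The donors were female C57BL/6 mice of 6 to 8 weeks, whose marrow was sorted for GMP cells (Lin-, c-Kit+, CD34+, high Fcγ receptor). A retrovirus carrying MLL-AF9 and the SPLINTR barcode viruses were put into the sorted cells, which were cultured with mouse IL-3, human IL-6 and mouse SCF. Ptprca is a strain with an intact immune system that differs from C57BL/6 in its CD45 allele. The labels used here give no age, sex, dose of cells or time of harvest for the recipients. Other kinds of recipient serve as comparison, each with 4 mice and both tissues. NSG mice, without B, T or NK cells, received the same GMP-derived cells (mice 13 to 16), and other Ptprca mice received GMP-derived cells mixed with LSK-derived cells, from a more immature progenitor population (mice 17 to 20). All groups carried the MLL-AF9 oncogene, so no normal marrow or spleen is in the comparison. Each cell type came as 1 transduced pool with 1 T0 column, so the spread between mice does not include the making of the leukaemia.

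The 8 columns rested on 5437021 to 7313318 barcode reads. A clone at 0 may still hold up to 3 reads, which is 4.10e-05% to 5.57e-05% of a column. Shares below are percentages of the GMP (mCHERRY) library reads of that column, and CPM is counts per 1000000 such reads. Some columns stood apart from the rest of their tissue. The spleen of mouse 7 held 896 barcodes that were in no T0 pool, against 6 to 73 in the other spleens, and they took 2.91% of its reads. The marrow of mouse 8 held 764 clones, against 213 to 263 in the other marrows, and 593 of its clones were under 10 CPM. The marrow of mouse 6 held 0.944% GFP reads, a label of LSK cells that this mouse did not receive. GFP reads do not enter the shares. Values without mouse 7 or mouse 8 stand beside the whole-column results below.

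A few clones made up most of each leukaemia, and fewer of them made up the spleen than the marrow. The marrow of mice 5 to 8 held 11.8, 12.2, 11.5 and 10.3 effective clones, the number of equally large clones with the same Shannon diversity. The spleen held 6.83, 6.56, 9.47 and 6.96. Every marrow value lay above every spleen value, and the pool given to these mice held 269. Marrow exceeded spleen within each of the 4 mice, by 0.63 ± 0.27 on the log2 scale (SD, n = 4, exact sign-flip permutation p = 0.13, two-sided, adjusted 0.175 over 7 tests). That is 2 of the 16 sign patterns of 4 mice, the smallest p this test allows, so a threshold of 0.05 could not be passed.

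Without barcodes absent from the pools the spleen of mouse 7 held 7.25 effective clones, still the highest of the 4, with 6.48 to 6.95 in the others. The difference between tissues was then 0.74 ± 0.15 (SD, n = 4), with the same exact permutation p of 0.13. With all barcodes counted the difference was 0.75 without mouse 7 and 0.66 without mouse 8.

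The largest clones held more of the spleen than of the marrow, except that the 5 largest held about as much of both in mouse 7. The 2 largest clones of each spleen held 60.5% to 67.5% of its reads, while those of each marrow held 48.4% to 51.2%. The spleens needed 6 to 8 clones to reach 90% of reads and the marrows 10 to 13. In the pool this took 297 clones. To reach 99% the marrows needed 52 to 67 clones and the spleens 38, 30, 479 and 19, where the 479 of mouse 7 include its barcodes absent from the pools. The 5 largest clones held 77.6%, 75.9%, 77.3% and 80.9% of the marrows of mice 5 to 8 and 87.2%, 85.7%, 77.03% and 86.4% of the spleens. Marrow minus spleen was -6.17 ± 4.71 percentage points for them (SD, n = 4, lower in marrow in 3 of 4 mice, exact sign-flip permutation p = 0.25). The 10 largest clones together held 88.7% ± 1.27 of marrow and 95.7% ± 1.56 of spleen (SD, n = 4 each). Marrow minus spleen was -7.0 percentage points on average (lower in marrow in 4 of 4 mice, exact sign-flip permutation p = 0.13, adjusted 0.175), -7.60 without mouse 7 and -7.22 without mouse 8. The largest clone held 28.2% ± 2.22 of marrow and 34.9% ± 1.73 of spleen (SD, n = 4 each), and the 4 marrow values did not overlap the 4 spleen values. Marrow minus spleen for the largest clone was -7.52 percentage points without mouse 7 and -6.28 without mouse 8.

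**Figure D1:**
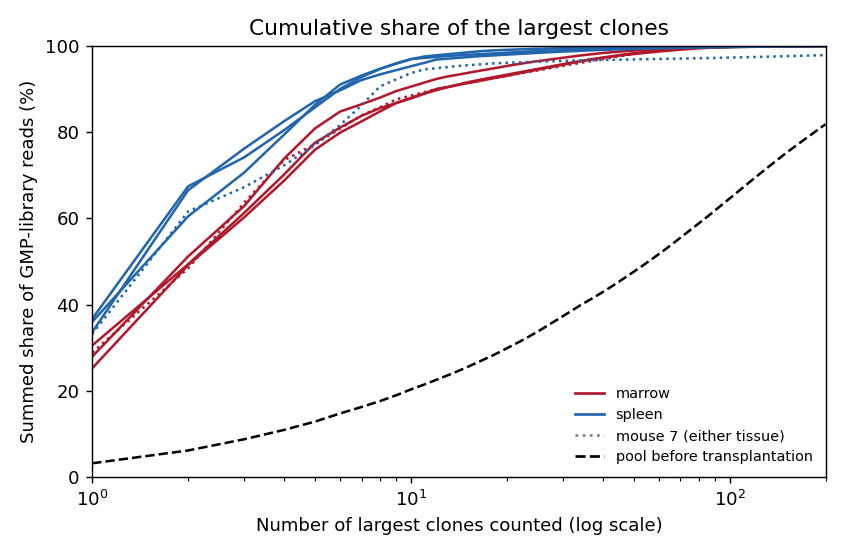
Summed share of GMP-library reads (%, y axis) held by the largest clones of a column, against the number of clones counted (x axis, log scale), for 4 marrows, 4 spleens and the pool before transplantation. The 2 largest clones reach 48.4% to 51.2% in marrow and 60.5% to 67.5% in spleen, and the dotted spleen line of mouse 7 levels off below the others.

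The marrow also held more clones of moderate size. At or over 100 CPM, which is 0.01% of reads, 98, 89, 89 and 80 clones were found in marrow and 65, 55, 53 and 47 in spleen. The difference was 0.70 ± 0.078 on the log2 scale (SD, n = 4, 4 of 4 mice, exact sign-flip permutation p = 0.13, adjusted 0.175). Above 1000 CPM the marrows held 36 to 50 clones and each spleen held 18. Below 100 CPM the counts depended on the columns that stood apart. At or over 10 CPM the mean difference was -0.58, with marrow higher in 2 of 4 mice. The spleen held more such clones in mouse 5 (200 against 163) and mouse 7 (904 against 136), and without mouse 7 the mean was 0.13. For any value above 0 it was -0.08, 0.67 without mouse 7 and -0.83 without mouse 8. Without barcodes absent from the pools that difference was 0.61, with marrow higher in 4 of 4 mice, but it was 0.08 without mouse 8, whose marrow held 759 such clones against 164 in its spleen.

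**Figure D2:**
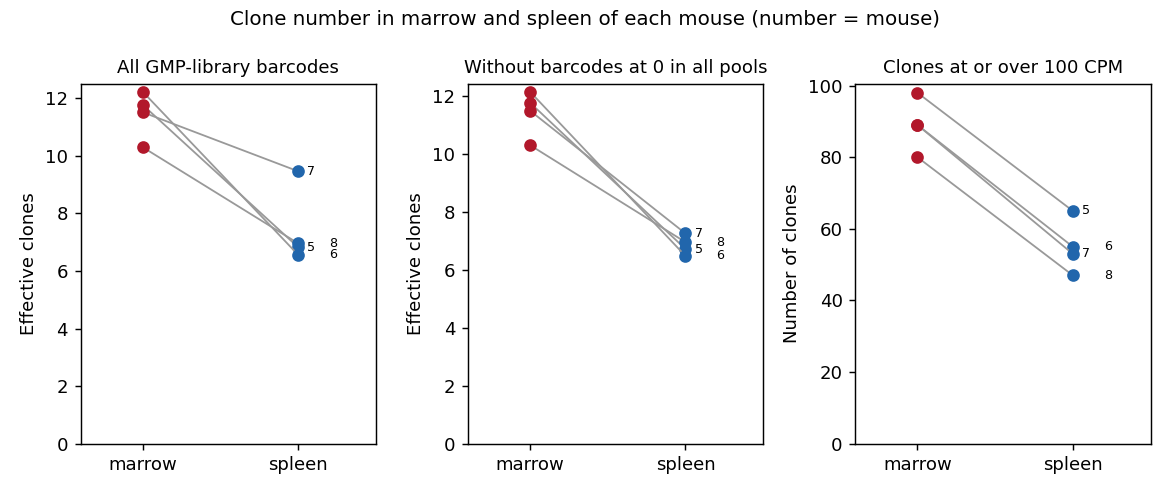
Effective clones with all GMP-library barcodes (left), effective clones without barcodes that were 0 in all 3 pools (middle) and clones at or over 100 CPM (right), y axes from 0, for marrow and spleen joined by mouse. In all 3 panels each line falls from marrow to spleen, and the spleen of mouse 7 moves from 9.47 to 7.25 effective clones between the first 2 panels.

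Sorted by mean share over both tissues, the balance between tissues differed by clone size. The 2 clones at or over 10% held 49.5% of marrow and 64.0% of spleen. The 8 clones between 1% and 10% held 37.9% of marrow and 31.2% of spleen, with 4 leaning each way. The 19 clones between 0.1% and 1% held 7.45% of marrow (6.82% to 7.84%) and 2.88% of spleen (1.69% to 3.72%). Of these, 15 were higher in marrow in all 4 mice and 0 were higher in spleen in all 4. The same counts were 45 and 3 over all 101 clones at or over 0.01%. The 72 clones between 0.01% and 0.1% held 4.47% of marrow (2.82% to 5.88%) and 0.892% of spleen (0.554% to 1.22%). The classes were cut from the same reads, so these shares are a description.

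Clones under 0.01% numbered 1736, of which 1062 were in no T0 pool, and they held 0.647% of marrow and 1.05% of spleen. The barcodes absent from the pools were small. Of the 1062, 1031 occurred in exactly 1 column, 876 of them in the spleen of mouse 7 alone. The largest by mean share, clone 427666, held 0.0149%, 0.00348%, 0.0113% and 0.00110% of the 4 spleens, and it was at 0, 0.00147%, 0.00241% and 0 in the 4 marrows. Clones 473069 and 35829 followed, with at most 0.0112% and 0.00791% in any column. Each clone is called by the last number of its barcode name, so that clone 427666 is mCHERRY_2_Barcode_427666.

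Few clones held more of a tissue than of the pool. Of 607 pool clones at or over 100 CPM, 28 had a mean marrow share above their pool share and 12 a mean spleen share above it. Those 28 held 91.6% of marrow and those 12 held 94.6% of spleen. Of the same 607, 6 were at 0 in all 4 marrows and 329 at 0 in all 4 spleens. That gap rests on the marrow of mouse 8, since 7 of the 607 were at 0 in the marrow with the fewest and 435 in the marrow with the most, against 412 to 456 in the spleens.

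Clone 626161 was the largest clone of all 4 marrows. It held 30.6%, 25.3%, 28.9% and 28.0% of the marrow of mice 5 to 8, and 33.6%, 30.7%, 28.4% and 24.5% of the spleen. The tissues overlapped, and the fitted log2 ratio of marrow over spleen was -0.05 ± 0.15 (SE, limma, adjusted p = 0.801). In the pool it had ranked 2 with 2.97%.

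Clone 283858 was the largest clone in the spleen of mice 6, 7 and 8. Its marrow shares were 18.8%, 23.9%, 19.5% and 23.2%, and its spleen shares were 32.9%, 36.7%, 33.2% and 36.01%. Every spleen value lay above every marrow value. The fitted log2 ratio was -0.71 ± 0.15 (SE), a share 1.63-fold higher in spleen (limma, adjusted p = 0.00427). The call was lost with limma without its variance trend (adjusted p = 0.332). This clone had ranked 41 in the pool with 0.491%, and its mean share was 43.5-fold above the pool in marrow and 70.7-fold above it in spleen. A ratio of clones within a column does not depend on scaling. Clone 283858 stood at 0.616 to 0.947 times clone 626161 in the marrows and at 0.979 to 1.47 times in the spleens.

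Clones 1204592 and 4128, both among the leading clones of the pool, were higher in marrow. Clone 1204592 held 11.9%, 11.1%, 15.2% and 10.97% of marrow and 6.34%, 2.77%, 4.54% and 6.93% of spleen. Its log2 ratio was 1.33 ± 0.25 (SE, limma, adjusted p = 0.00238). Clone 4128, the largest of the pool at 3.24%, held 8.87%, 7.17%, 9.84% and 11.7% of marrow and 2.53%, 1.84%, 1.65% and 2.09% of spleen. Neither clone had overlapping values. For clone 4128 the log2 ratio was 2.21 ± 0.25 (SE), a 4.63-fold higher share in marrow (limma, adjusted p = 6.09e-05). Its mean spleen share was 0.626 times its pool share, so it was above the pool in marrow and below it in spleen. Limma without its variance trend called neither clone (adjusted p = 0.0553 for clone 4128 and 0.133 for clone 1204592).

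Clone 307110 showed the opposite pattern from a low start. It had ranked 392 in the pool with 0.0345%. It held 1.07%, 1.97%, 0.847% and 1.52% of marrow and 4.64%, 6.72%, 4.65% and 10.2% of spleen, where it was 190-fold above the pool. All spleen values lay above all marrow values, with a log2 ratio of -2.27 ± 0.28 (SE, limma, adjusted p = 7.35e-05), a 4.83-fold higher share in spleen. Limma without its variance trend did not call this clone (adjusted p = 0.0553). Clone 4128 stood at 3.65 to 11.6 times clone 307110 in the marrows and at 0.205 to 0.545 times in the spleens, so their order was reversed in each of the 4 mice.

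Clone 418436, rank 533 in the pool, was the other clone called higher in spleen. It held 1.80%, 0.221%, 0.179% and 0.169% of marrow and 1.30%, 1.34%, 4.72% and 1.02% of spleen. Mouse 5 ran the other way, with more in marrow, so the tissues overlapped. The log2 ratio was -2.36 ± 0.62 (SE, limma, adjusted p = 0.0132), the lowest of all tested clones. It was -1.57 without mouse 7 and -3.30 without mouse 5, and the call was lost without mouse 6 (limma, adjusted p = 0.088) or mouse 8 (0.158).

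The remaining clones of the 10 largest were divided. Clone 88201 held 3.52% to 3.98% of marrow and 4.3% to 9.65% of spleen, without overlap, but it missed the threshold (log2 ratio -0.74 ± 0.28 SE, limma, adjusted p = 0.0567). Clone 532289 held 1.54% to 2.71% of marrow and 0.876% to 1.17% of spleen and was called higher in marrow (log2 ratio 1.09 ± 0.33 SE, limma, adjusted p = 0.0229). That call was lost without mouse 5, 6 or 7, with limma adjusted p of 0.0562 to 0.1246. Clone 205681, rank 292 in the pool, held 3.59% to 8.49% of marrow and 2.39% to 6.30% of spleen, and was not called (log2 ratio 0.50 ± 0.31 SE, limma, adjusted p = 0.253). Clone 151869 varied by mouse more than by tissue, with 2.59% and 3.03% in the marrow and 5.27% and 5.05% in the spleen of mice 6 and 7, and under 1% in both tissues of mice 5 and 8. Its log2 ratio was -0.23 ± 0.45 (SE, limma, adjusted p = 0.704).

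**Figure D3:**
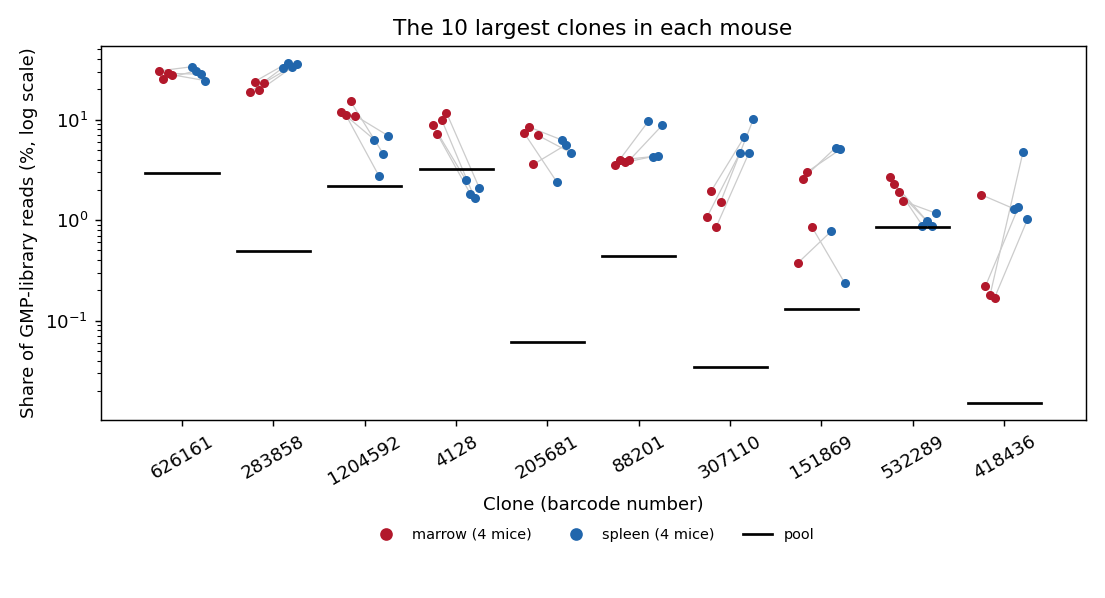
Share of GMP-library reads (%, y axis, log scale) of the 10 largest clones in marrow and spleen of 4 mice, joined by mouse, with the pool share as a black line. Clones 1204592, 4128 and 532289 lie higher in marrow in every mouse, clones 283858, 88201 and 307110 higher in spleen in every mouse, and clone 626161 is at similar height in both.

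Clones were tested where their mean over the 8 columns reached 100 CPM, which 1 tissue alone could supply. Clones 896021, 902317, 32578 and 373380 had mean spleen shares of 0.00227%, 0.00214%, 0.0011% and 1.10e-05%, under 0.01%, and entered through marrow. They were not the only ones, since the clone of rank 73 by mean spleen share was already at 0.00768%. Each spleen held 47 to 65 clones at or over 100 CPM and each marrow 80 to 98. The counts that follow include all clones that entered through marrow, so they do not describe only clones measured in both tissues. Of the 101 clones tested, 30 were called higher in marrow (29.7%) and 3 higher in spleen (2.97%). Calls were made by limma with mouse as a block at an adjusted p under 0.05. Unadjusted, 48 had a p under 0.05. All 101 were in the GMP pool, so leaving out barcodes absent from the pools gave the same 30 and 3. The 30 together held 30.6%, 27.2%, 33.4% and 30.6% of the marrows and 11.7%, 6.46%, 8.04% and 11.5% of the spleens. Their summed pool share was 21.96%. Of the 30, 22 were below their pool share in marrow and 27 below it in spleen. For most of them a call higher in marrow was thus not a gain over the pool. Clones 1204592 and 4128, both among the 30, had mean marrow shares of 12.3% and 9.40%. Of the 3 called higher in spleen, 0 were below their pool share in either tissue. The 3 held 21.7%, 26.1%, 20.6% and 24.9% of the marrows and 38.9%, 44.8%, 42.6% and 47.2% of the spleens. In 25 of the 30 and in 2 of the 3 the tissues did not overlap, against 31 of all 101 clones (30.7%). Without mouse 6 the counts were 16 and 2, and without mouse 7 they were 19 and 3.

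The split between directions depended on what the ratios were measured against. The median tested clone had a log2 ratio of 1.75 as a share of reads, and 87 of 101 were above 0. Both values include clones that entered the test through marrow. With each column centred on its median clone, which lowered every log2 ratio by 2.70, 0 were called higher in marrow and 12 lower, among them 9 of the 10 clones at 1% or more and 2 of the 30 clones called above. With edgeR on the recovered reads 7 were higher in marrow and 2 in spleen, and with TMM scaling 1 and 4. Shares of 1 column sum to a fixed total, so the larger spleen shares of the leading clones and the smaller spleen shares of the rest cannot be told apart as 2 events. Clones 283858, 307110 and 418436 had a log2 ratio below 0 under each of these scalings. Clone 1204592 turned from 1.33 to -1.37 with centring and to -0.43 with TMM, and clone 4128 turned from 2.21 to -0.49 with centring and stood at 0.46 with TMM.

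**Figure D4:**
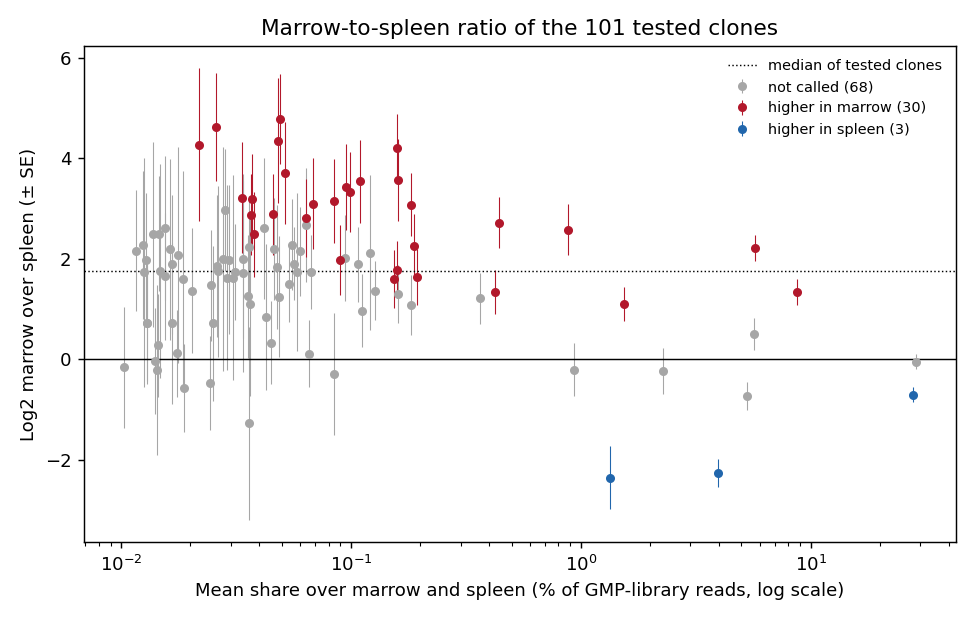
Fitted log2 ratio of marrow over spleen (y axis, ± SE) of the 101 tested clones against mean share over both tissues (%, x axis, log scale), with 30 clones called higher in marrow, 3 in spleen and 68 not called. Most small clones lie above 0 around the dotted median of 1.75, and the 3 clones called in spleen are all above 1%.

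Clones called higher in marrow came from each size class under 10%, and neither of the 2 clones at or over 10% was among them. By mean share 16 of the 30 were under 0.1%, 11 between 0.1% and 1% and 3 at 1% or more. Of all 101 clones tested, 72 were under 0.1%, 19 between 0.1% and 1% and 10 at 1% or more. Clones under 0.1% were thus a smaller part of the calls than of the clones tested. The log2 ratios of the 30 ran from 1.09 to 4.78. Clone 896021 had the highest, with 0.0687%, 0.0699%, 0.191% and 0.0543% of marrow and 0.00347%, 0.00256%, 0.00231% and 0.000756% of spleen (log2 ratio 4.78 ± 0.90 SE, limma, adjusted p = 0.00236). Clone 109489 held 0.425%, 0.315%, 0.300% and 0.166% of marrow and 0.0162%, 0.0118%, 0.00986% and 0.0236% of spleen (log2 ratio 4.20 ± 0.68 SE, limma, adjusted p = 0.000848). In both clones every marrow value exceeded every spleen value.

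Next to these, 3 clones were near the detection limit in spleen. Clone 902317 was at 0.0394% to 0.0657% of marrow, with 52, 3, 528 and 0 reads in the spleens of mice 5 to 8. Clone 373380 had 3839, 499, 5727 and 71 reads in the marrows and 3 reads in the spleen of mouse 7, with 0 in the other spleens. Clone 32578 held 0.221%, 0.0490%, 0.112% and 0.000464% of marrow and at most 0.00294% of spleen. All 3 were called (log2 ratios 4.62, 4.34 and 4.27 for clones 902317, 32578 and 373380, limma, adjusted p = 0.00681, 0.0166 and 0.0442). The size of such ratios depends on the 10 CPM added to each value, and the calls of clones 32578 and 373380 were lost without mouse 5, 6 or 7.

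The pool's large clones did not share 1 behaviour. Besides clones 4128, 626161 and 1204592, the leading 5 of the pool held clone 205626, with 2.60%, and clone 34872, with 1.92%. Clone 205626 was below its pool share in all 8 columns, with 0.5998%, 1.03%, 0.499% and 0.908% of marrow and 0.170%, 0.0809%, 0.0551% and 0.189% of spleen. It was called higher in marrow (log2 ratio 2.72 ± 0.50 SE, limma, adjusted p = 0.00235). Clone 34872 varied between mice, with 0.00203%, 0.0136%, 0.366% and 0.325% of marrow and 0.00413%, 0.244%, 0.0108% and 0 of spleen, and was not called (log2 ratio 2.12 ± 1.54 SE, limma, adjusted p = 0.325). Clones called in marrow had a median pool rank of 61 (range 1 to 443), and the 3 called in spleen had ranks 41, 392 and 533. Over all 101 clones the log2 ratio had a Spearman correlation of 0.03 with the pool share and -0.04 with the mean share. Over the 29 clones at or over 0.1% it was 0.37 with the pool share and -0.56 with the mean share, where the points share 8 columns and the mean share contains the ratio's own values.

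Marrow resembled the marrow of other mice more than the spleen of its own mouse. Bray-Curtis distance, which is 0 for equal shares and 1 for no shared clones, was 0.113 to 0.171 between marrows of different mice and 0.104 to 0.175 between spleens of different mice. Between marrow and spleen of the same mouse it was 0.279 to 0.308, and between marrow and spleen of different mice 0.263 to 0.346. The mean distance of own-mouse pairs minus that of other pairs was -0.00615 (exact permutation of pairings, one-sided p = 0.25, adjusted 0.257). Marrows lay at 0.795 to 0.814 from the pool and spleens at 0.870 to 0.890. Of the 10 largest clones of each column, 7 were common to all 8 columns, and marrow and spleen of a mouse shared 8 to 10. The log2 ratios of the 101 clones correlated weakly between mice, with Spearman values of -0.09 to 0.28 over 6 pairs of mice.

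Mice that received the same cells mixed with LSK-derived cells give tissue ratios from other animals. Their marrow held 7.501 to 10.2 effective GMP clones and their spleen 5.86 to 7.64. The log2 difference between tissues was 0.43 ± 0.19 there (SD, n = 4, 4 of 4 mice positive) and 0.20 smaller than in mice with GMP cells alone (exact permutation p = 0.257, adjusted 0.257). Of the 10 largest clones, 8 had a log2 ratio of the same sign in both kinds of mice, beside 48 of the 60 tested in both. Clones 205681 (0.50 with GMP cells alone and -0.88 in mixed recipients) and 151869 (-0.23 and 1.23) had opposite signs. Clone 307110 held 1.03%, 0.773%, 0.764% and 0.274% of marrow and 5.29%, 13.8%, 4.79% and 3.71% of spleen in mice 17 to 20 (log2 ratio -3.23 ± 0.46 SE, limma, adjusted p = 0.0025). Clone 4128 held 10.8%, 11.7%, 10.4% and 16.3% of marrow and 5.04%, 1.79%, 2.05% and 2.96% of spleen (log2 ratio 2.15 ± 0.35 SE, limma, adjusted p = 0.00395).

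In these mixed recipients 77 clones were tested and 4 called (5.19%): clones 4128 and 109489 in marrow, and clones 307110 and 418436 in spleen. All 4 had been called in the same direction in mice with GMP cells alone. Of the 30 clones called in marrow, 23 were tested there and 21 had a log2 ratio above 0, beside 61 of all 77 tested. The 3 called in spleen were below 0 there as well. Over the 60 clones tested in both kinds of mice the log2 ratios had a Spearman correlation of 0.53, where the points share no column but do share the pool of cells. By limma's interaction term 0 of 101 clones differed between the 2 kinds of mice (0%), with 6 at an unadjusted p under 0.05. Only 60 of these 101 reached the minimum of 100 CPM in each kind of mice alone. For clone 4128 the difference was 0.06 ± 0.43 and for clone 283858 0.01 ± 0.27 (SE). The error was larger for other clones, such as 0.98 for clone 205681 and 1.01 for clone 418436. A difference had to exceed its error several times to be called. The absence of calls thus does not show that the ratios were alike.

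NSG mice with GMP cells showed less separation of the tissues. They held 5.66 to 8.11 effective clones in marrow and 6.03 to 7.44 in spleen, and the log2 difference was 0.15, 0.43, -0.36 and 0.06 in mice 13 to 16. The difference between hosts was 0.56 (exact permutation p = 0.0571, adjusted 0.175) and 0.66 without barcodes absent from the pools (exact permutation p = 0.0286, the smallest that 4 against 4 allow, adjusted 0.175). Since even the smallest possible p gave an adjusted 0.175 beside the other tests, a threshold of 0.05 could not be passed after adjustment. Of 45 clones tested in NSG mice, 0 were called by limma (0%) and 4 had an unadjusted p under 0.05. The median log2 ratio was 0.08. Of the 30 clones called in Ptprca marrow, 16 were tested in NSG mice and 8 had a log2 ratio above 0, beside 24 of all 45. The 3 called in spleen, clones 283858, 307110 and 418436, were below 0 (-0.25 ± 0.24, -0.11 ± 1.47 and -1.94 ± 1.90 SE). Of the 10 largest clones, 4 had the same sign in both hosts, beside 18 of the 36 tested in both. Over those 36 the Spearman correlation of log2 ratios was 0.34, where the points share the pool of cells.

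**Figure D5:**
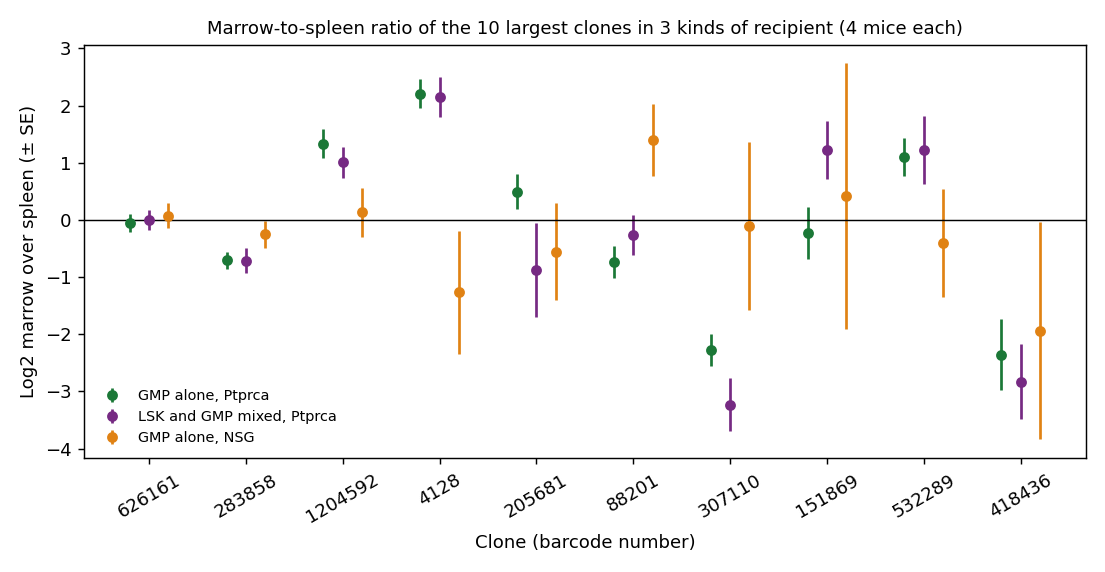
Fitted log2 ratio of marrow over spleen (y axis, ± SE) of the 10 largest clones in 3 kinds of recipient with 4 mice each. Clone 4128 is at 2.21 and 2.15 in the 2 kinds of Ptprca mice and at -1.27 in NSG mice, and clone 626161 lies within 0.08 of 0 in all 3.

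Limma's interaction term called 3 of 88 clones (3.41%) between Ptprca and NSG mice, with 19 at an unadjusted p under 0.05. The minimum of 100 CPM applied to the mean over both hosts, and 36 of the 88 reached it in each host alone. The rest were under it in 1 host, so the counts of 3 and 19 are not read as numbers of clones that differ between hosts. Only clone 4128 of the 3 had a ratio of its own in both hosts. Clone 4128 held 1.02%, 1.78%, 0.667% and 4.96% of marrow and 5.44%, 12.4%, 1.48% and 2.03% of spleen in NSG mice, which is higher in spleen in 3 of 4. Its log2 ratio was larger in Ptprca mice by 3.48 ± 0.85 (SE, limma, adjusted p = 0.0459). Clone 88201 went the other way, higher in marrow in 4 of 4 NSG mice. It missed the threshold (difference -2.14 ± 0.61 SE, limma, adjusted p = 0.0744). Clones 902317 and 520451 were under the minimum of 100 CPM in NSG mice and entered the test through the Ptprca columns, so no NSG ratio was measured for them and their fitted values are not read as a difference between hosts. Clone 902317 reached at most 5.87e-05% in any column of NSG mice, where the added 10 CPM sets the ratio. Its fitted difference was 4.64 ± 1.13 (SE, limma, adjusted p = 0.0459). Clone 520451 held 0.302%, 0.0560%, 0.0426% and 0.165% of Ptprca marrow and 0.0939%, 0.00307%, 0.0109% and 0.00345% of Ptprca spleen. In NSG mice it held at most 0.0211% in any column (fitted difference 4.57 ± 1.16 SE, limma, adjusted p = 0.0459). With 1 mouse left out the number of such clones was 0 to 3, with 0 without mouse 6, 13 or 14 and 1 without mouse 7 or 15. The 3 calls were lost with centring on the median clone, where 3 other clones were called. Clones 283858 and 307110 did not pass this test (limma, adjusted p = 0.374 and 0.526). In NSG mice clone 307110 held 0.167% of the marrow of mouse 15 and at most 0.0114% of any other column. Its ratio there (-0.11 ± 1.47 SE) was too uncertain to tell whether the hosts were alike.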

How the data were processed

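The authors deposited 1 table of CPM per host, counts per 1000000 barcode reads, in which barcodes were filtered and the 2 PCR libraries of each tissue collapsed to 1 column, per the file names and headers. Whether libraries were summed or averaged is not given in the sources used here. Bowtie 1.2.2 and R 3.6 are named in the submitters' processing notes. The labels give genomic DNA, while their extraction protocol describes a droplet preparation, so the route is uncertain. Values of the deposited CPM columns were whole multiples of 1 read in 100% of cases (within 0.01), and edgeR on those reads called 7 clones in marrow and 2 in spleen. Of 51 columns 23 were not used.

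CPM were rescaled to the mCHERRY reads of each column. Marrow and spleen were paired by mouse number, the same animal. Deviations from tissue means correlated at 0.04 to 0.22 within mice. Single clones were tested with limma 3.58.1 (R 4.3.3, lmFit and eBayes with trend, two-sided, Benjamini-Hochberg) on log2 of CPM plus 10, with mouse as a block, where the mean over the columns reached 100 CPM. Whole-column measures used exact permutation tests, adjusted over 7 tests. Alternatives were pseudocounts of 1 and 100, minima of 10, 1000 and none, deposited scaling, centring, edgeR 4.0.16, other diversity measures and each mouse left out. Added after seeing the data were the count above 0 without barcodes absent from the pools, the counts under 100 CPM and the distances with a mouse left out. The limma fit was checked on simulated clones with independent normal noise, for the sign of planted changes. The exact tests were checked for the smallest p they can give. Error rates on data with zeros and fixed column totals were not checked. Named clones were the 10 largest by mean, up to 5 called per direction, the 5 largest of the pool, the 3 largest absent from the pools, up to 3 per interaction and the extremes of the ratio. Members, lists and tests were chosen with earlier results of these data known. The labels do not say that mice came from separate leukaemias, so p-values measure the spread between mice given 1 pool. Intervals of 3 reads cover counting error only, since PCR reads are not independent molecules.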

Additional observations from a re-analysis of the deposited data

Results flagged for a closer look

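Single values far from the other 3 mice of a tissue were found in 14 of 67 groups of 4 values examined. The critical value used is passed by chance in about 1 of 20 groups, and many of these groups share the same columns, so the number found is not set against that rate. In the spleens, mouse 7 stood apart with 9.47 effective clones, 1070 clones above 0, 896 barcodes absent from the pools and 2.91% of reads in them. The same spleen held 4.72% of clone 418436, 0.00771% of clone 902317 and 4.38e-05% of clone 373380. In the marrow of mouse 8, 764 clones were above 0. Clone 418436 held 1.80% of the marrow of mouse 5, and clone 896021 held 0.191% of the marrow of mouse 7. Clone 35829, absent from the pools, held 0.00791% of the marrow and 0.00337% of the spleen of mouse 6. The spleen of mouse 6 held 0.244% of clone 34872, and that of mouse 5 held 0.0939% of clone 520451. Their causes were not tested.

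Limma's interaction test between Ptprca and NSG mice was passed by clone 4128, whose log2 ratio was larger in Ptprca mice by 3.48. It was also passed by clones 520451 and 902317, with fitted differences of 4.57 and 4.64, but both were under the minimum of 100 CPM in NSG mice, so they give no ratio there to compare.

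Reads of libraries that these mice did not receive were present in all 8 columns. GFP barcodes took 0.00619% (spleen of mouse 7) to 0.944% (marrow of mouse 6) of reads, and 1 barcode, GFP_Barcode_167047, held 0.779% in that marrow. BFP barcodes took 0.00129% (marrow of mouse 5) to 0.0274% (spleen of mouse 6). In the GMP pool they took 0.0137% and 0.00702%.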

How the results depend on the processing

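Effective clones, the largest clone and the top 10 share kept their direction under all alternatives run, and no paired p could pass 0.05 with 4 mice (unpaired, the exact permutation p for effective clones was 0.0286, adjusted 0.175). Detected clones reversed at or over 10 CPM (-0.58), for any value above 0 (-0.078) and for that count at the lowest depth (-0.0802). With 1 mouse left out as well they ranged from -0.984 to 0.134 at or over 10 CPM (-0.678, -0.801 and -0.984 without mouse 5, 6 and 8), from -0.827 to 0.672 above 0 (-0.162 and -0.827 without mouse 6 and 8), and from 0.0792 to 0.802 above 0 without barcodes absent from the pools. Clones called higher in marrow (30) numbered 14 with a minimum of 1000 CPM, 9 with none, 0 with centring, 5 with eBayes without trend, 7 with edgeR, 1 with edgeR and TMM, and 16 to 27 with a mouse left out. Clones called higher in spleen (3) numbered 12 with centring, 0 with eBayes without trend and 2 to 3 with a mouse left out. No replicate block gave 28 and 3, so dropping the pairing by mouse changed neither count by over 1.5 times, and it gave 0.63 for effective clones. Clones differing from NSG mice (3) numbered 8 with a pseudocount of 100 CPM, 3 with centring (other clones) and 0 to 3 with a mouse left out. Those differing from mixed recipients (0) numbered 0 to 1. With centring the log2 ratio reversed for clones 1204592 (-1.37), 4128 (-0.49), 205681 (-2.21), 532289 (-1.61) and 34872 (-0.58), and with TMM for clones 1204592 (-0.43), 205681 (-1.21) and 532289 (-0.66). With a mouse left out clone 626161 ranged from -0.132 to 0.0261 and clone 151869 from -0.930 to 0.0315. Centring and TMM change the reference of the ratio by construction. The cause of the other changes was not tested. Clones under 100 CPM rest on few reads and on the columns that stood apart.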
